A study of Mus musculus with 10 samples.

Results

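The 8 genes described here were the S100 alarmin genes S100a8 and S100a9 and the leukocyte genes Ptprc, Cd53, Fcer1g, Coro1a, Lcp1 and Laptm5, 8 of the 24470 gene entries counted in cultured mouse fetal testes. They were selected on their own values in the comparison of treated with untreated testes, so those values are a description and carry no test. RNA of whole gonads was sequenced from 5 C57BL/6 embryos collected at E12.5. Of each embryo, 1 gonad was cultured for 48 h in 75 µM GPI (compound CP-316819, an inhibitor of the glycogen phosphorylases that break glycogen down) and the other in vehicle, DMSO. The mesonephros stayed attached during culture and the gonad was dissected from it before RNA was extracted, so each library held every cell type of the gonad. The 5 vehicle libraries held 10203679 to 15590223 counts and the 5 GPI libraries 11025409 to 15635322. Embryos are called mice M1 to M5 below.

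S100A8 and S100A9 are calcium-binding proteins that pair into calprotectin, the most plentiful cytosolic protein of neutrophils, and are released as danger signals. The other members act inside or on the surface of white blood cells: CD45 and CD53 in the membrane, the Fc receptor gamma chain in signalling, coronin-1A and L-plastin on actin, and LAPTM5 in lysosomes. The fetal testis holds macrophages that arrive from the yolk sac and later from other blood-forming sites, together with germ cells, Sertoli cells, Leydig cells and a growing vasculature.

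All 8 members passed the filter on low counts. With GPI, 7 had fewer normalized counts (counts scaled for library size and composition) in 5 of 5 mice. Cd53 was lower in 3 mice and higher in 2. In 6 members every GPI library lay below every vehicle library, an arrangement that 9.25% of the 15010 tested genes showed. The fit across all genes called 7 members lower at a false discovery rate of 0.05, beside 12.2% of all tested genes called lower and 9.73% called higher. Because the choice of members used this comparison, nothing is read from these counts. In bulk RNA, fewer cells of a type and less RNA per cell cannot be told apart. Added together, the 8 members had 1328 ± 354 normalized counts in vehicle libraries and 213 ± 87.1 in GPI libraries (mean ± SD, n = 5).

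**Figure D1:**
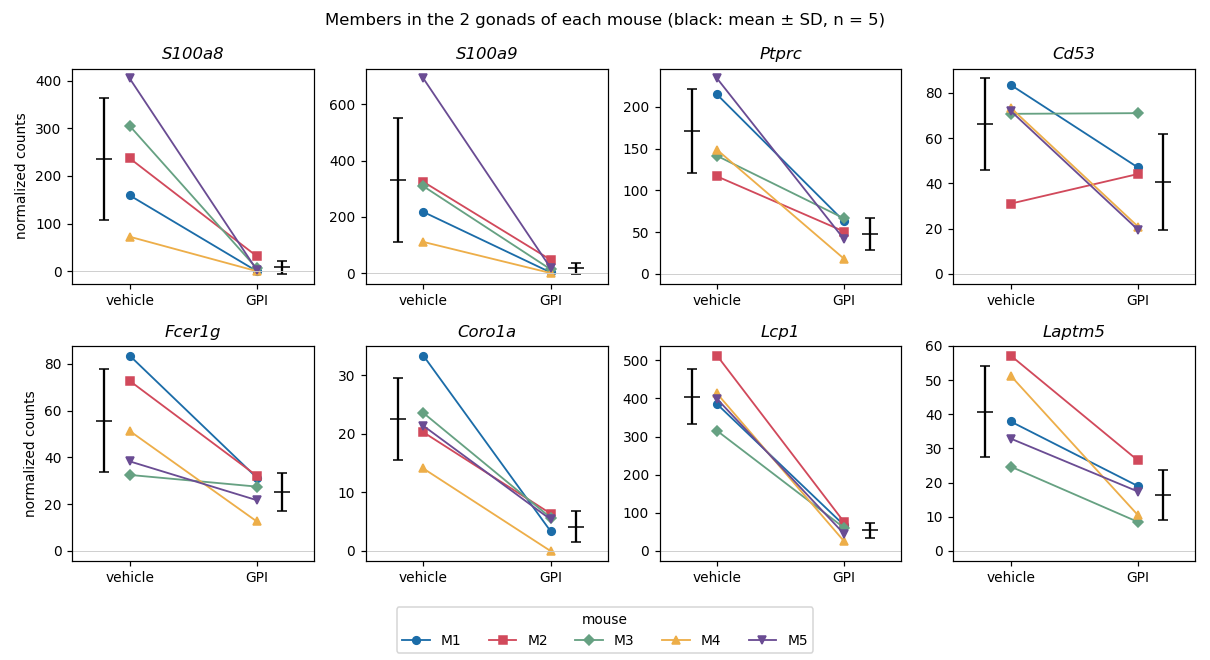
Normalized counts (y axis) of each member in the vehicle and the GPI gonad of each mouse (x axis), with lines joining the 2 gonads and black bars for the mean ± SD of 5 libraries. Lcp1 lies at 315 or more with vehicle and at 75.4 or fewer with GPI, while the lines of Cd53 cross.

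S100a8 (Entrez Gene 20201) lies on chromosome 3 of mm10 from 90669071 to 90670034, on the plus strand. With vehicle, mice M1 to M5 had 159, 237, 305, 72.4 and 405 normalized counts. With GPI they had 0, 31.3, 5.7, 0 and 2.2. The groups did not overlap, M5 was highest and M4 lowest with vehicle, and M2 alone kept more than a trace with GPI. Vehicle libraries averaged 236 ± 129 and GPI libraries 7.83 ± 13.3 (mean ± SD, n = 5), and the fitted log2 fold change was -5.03 (standard error 0.52). Without M2 the fitted value was -6.76.

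S100a9 (Entrez Gene 20202), whose product is the partner of S100A8 in calprotectin, lies 22595 bases beyond S100a8 on the opposite strand, from 90692630 to 90695721, with no other entry between them. Its vehicle libraries held 217, 324, 309, 111 and 692 normalized counts in M1 to M5. Its GPI libraries held 2.2, 47.3, 13.3, 0 and 18.5. The order of mice resembled that of S100a8: M5 highest and M4 lowest with vehicle, and M2 highest with GPI. The fitted log2 fold change was -4.43 (standard error 0.39), and -5.29 without M2. In each vehicle library S100a9 had 1.01 to 1.71 counts for each count of S100a8, and in the 3 GPI libraries that held any S100a8 count 1.51, 2.33 and 8.5.

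The 250 bases before the start of the pair, and of the most counted other members Lcp1 and Ptprc, are shown because these genes moved together in 5 of 5 mice. They come from RefSeq (GRCm38.p6, the same assembly as mm10), which held a promoter for 8 of 8 members, and are written 5′ to 3′ on the strand of the gene. Capitals mark matches on either strand to GAGGAA, the core bound by PU.1, to TTGCNNAA, a C/EBP motif, and to CACCC, a KLF motif, none of which overlapped another motif.
S100a8, chr3:90668821-90669070, plus strand: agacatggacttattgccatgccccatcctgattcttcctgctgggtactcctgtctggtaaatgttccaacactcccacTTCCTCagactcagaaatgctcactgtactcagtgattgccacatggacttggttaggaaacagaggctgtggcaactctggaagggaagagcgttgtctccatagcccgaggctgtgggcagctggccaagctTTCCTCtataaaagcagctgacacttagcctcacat
S100a9, chr3:90695722-90695971, minus strand: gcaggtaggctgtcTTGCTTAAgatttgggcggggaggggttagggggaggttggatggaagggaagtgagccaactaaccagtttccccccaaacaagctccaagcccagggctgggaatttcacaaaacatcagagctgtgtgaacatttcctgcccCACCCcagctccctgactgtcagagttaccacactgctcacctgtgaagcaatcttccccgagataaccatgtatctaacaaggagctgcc
Lcp1, chr14:75130873-75131122, plus strand: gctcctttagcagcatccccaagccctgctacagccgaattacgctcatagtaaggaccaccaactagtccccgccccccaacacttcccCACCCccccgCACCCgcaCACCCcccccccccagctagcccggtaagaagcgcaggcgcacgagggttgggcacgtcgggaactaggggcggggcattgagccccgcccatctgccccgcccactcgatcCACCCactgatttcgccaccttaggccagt
Ptprc, chr1:138175306-138175555, minus strand: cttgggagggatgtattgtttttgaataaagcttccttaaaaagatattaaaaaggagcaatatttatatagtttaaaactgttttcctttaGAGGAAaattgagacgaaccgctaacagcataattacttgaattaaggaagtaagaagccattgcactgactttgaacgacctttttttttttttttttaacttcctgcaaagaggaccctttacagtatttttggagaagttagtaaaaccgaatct

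In windows that also took in 50 bases after the start, GAGGAA or its complement stood in 4 of 8 members, S100a8, Ptprc, Cd53 and Laptm5, and in 28.3% of 32851 RefSeq promoters. S100a8 held 2 such matches, of which the nearer began 36 bases before its start. CACCC stood in 4 of 8 members, S100a9, Fcer1g, Coro1a and Lcp1, and in 57.5% of all promoters. Lcp1 alone held 4 matches to it. The C/EBP motif stood in S100a9 only, and in 10.8% of all promoters. No motif was shared by S100a8 and S100a9 in this window. These matches describe letters and not binding.

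The genes most like the pair over the 10 libraries were stefins, inhibitors of cysteine proteases that belong to a gene cluster on chromosome 16. Among the 11101 tested genes averaging 50 counts or more, Stfa1 (Pearson r = 0.995), Cstdc5 (0.992) and Cstdc4 (0.991) came first, followed by the kinase gene Nek3 (0.981) and Irag1 (0.965). The points are 10 libraries that share 5 mice and 1 large treatment difference. With each treatment centred on its own mean, the same 3 stefins still came first, with r of 0.981, 0.958 and 0.956, followed by the protocadherin gene Pcdhb16 (0.921) and Nek3 (0.896).

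With vehicle, Stfa1 had 113, 269, 302, 84.4 and 417 normalized counts in M1 to M5. The GPI libraries held 0, 43.3, 5.7, 0 and 6.5. As for the S100 pair, M5 was highest and M4 lowest with vehicle, and M2 was highest with GPI. Its log2 fold change was -4.68 (standard error 0.49, lower in 5 of 5 mice), and -6.19 without M2. Cstdc4 had a log2 fold change of -4.71 and Cstdc5 of -4.52, each called lower and lower in 5 of 5 mice, and without M2 the values were -6.14 and -5.56. Stefin A genes are close copies of each other, so how reads were divided among them is uncertain. Irag1 (-0.67) and Pcdhb16 (-0.63) also fell, while Nek3 was not called (log2 fold change -0.48, edgeR adjusted p = 0.122). All of these genes were chosen for following the S100 pair in the same libraries. Their values and calls are therefore a description and carry no test.

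Of 22 listed neutrophil granule and maturation genes, 18 were tested, 10 were called lower and 1 higher, with a median log2 fold change of -2.40, also with genes absent from every GPI library set at their bound. Many of the 18 passed the filter only through the vehicle libraries in which they were high, so this count and this median are given as a description. With at least 10 counts required in every library, 3 were tested, of which 2 were called lower and 1 higher. The same limit applies to low-count genes of every list below, beside a median of 0.00 over all tested genes. The listed genes with the most counts were Mgst1, a microsomal glutathione transferase, the integrin subunit gene Itgam, the annexin gene Anxa1 and the granule protein gene Ngp. Itgam (log2 fold change -2.01, edgeR adjusted p = 0.00316) and Anxa1 (-2.01, edgeR adjusted p = 3.89e-05) were lower in 5 of 5 mice. Itgam was nearly level in M2, at 66.8 normalized counts with vehicle and 65.8 with GPI. Mgst1, which is expressed in many tissues, rose instead (0.73, edgeR adjusted p = 0.000106, higher in 5 of 5 mice) and made up 45.8% of the summed vehicle level of the list. Without Mgst1 the list summed to 779, 716, 850.0, 340.0 and 1398 normalized counts with vehicle in M1 to M5 and to 121, 217, 136, 90.0 and 77 with GPI, lower in every mouse.

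Ngp had 106, 89.4, 127, 22.1 and 244 normalized counts with vehicle in M1 to M5. The GPI gonads had 1.1, 53.8, 4.7, 0 and 0. The groups overlapped through M2, the mouse that also kept the most S100a8, S100a9 and Stfa1. Its log2 fold change was -3.93 (standard error 0.76, lower in 5 of 5 mice), -6.16 without M2 and -3.32 without M5.

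Other granule genes were named after their values were seen, so their values are a description and carry no test. In Ltf, Lcn2 and Mpo the lowest vehicle library was that of M4. Ltf, encoding lactoferrin, had 75.7, 44.1, 52.7, 12.1 and 157 normalized counts with vehicle and 0, 28.1, 1.9, 0 and 0 with GPI. Its log2 fold change of -3.99 became -6.75 without M2 and -3.38 without M5. Lcn2, the lipocalin that binds bacterial siderophores, fell by 4.07 on the log2 scale (standard error 0.47, lower in 5 of 5 mice), with groups that did not overlap. Mpo, the myeloperoxidase of primary granules, had 18.9, 63.2, 169.5, 1.0 and 119 normalized counts with vehicle and at most 3.8 with GPI. M4 therefore held almost no Mpo with either treatment, and the log2 fold change was -6.19 (-7.12 without M3). The collagenase gene Mmp8 fell by 4.53 (-5.20 without M3 and -3.86 without M5).

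Fcnb and Chil3 had 58 and 43 counts over the 5 vehicle libraries and 0 in every GPI library. Against a floor of 3 counts over the group, they were at least 19.9-fold and at least 14.7-fold lower. These bounds rest on few libraries: Fcnb had 2, 19, 23, 0 and 14 vehicle counts in M1 to M5 and Chil3 1, 10, 31, 0 and 1, so M4 held 0 with either treatment. Without M3 the bounds were 11.6-fold for Fcnb and 3.98-fold for Chil3, and without M2 12.2-fold and 10.3-fold. Both passed the filter only through vehicle libraries in which they were high, so their calls are a description and carry no test. Both were called lower by edgeR, but neither by DESeq2. The surface marker Ly6g was close to 0 in every library. Ly6g, Elane, Ctsg and Padi4 had too few counts to be tested.

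Ptprc (Entrez Gene 19264, chromosome 1 from 138062859 to 138175305) encodes CD45, the membrane phosphatase of nucleated blood cells. In vehicle it reached 215, 117, 141, 149 and 234 normalized counts in M1 to M5. In GPI it reached 62.7, 50.6, 66.3, 17.8 and 41.2. The groups did not overlap, and M4 was lowest with GPI. The fitted log2 fold change was -1.86 (standard error 0.26).

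Cd53 (Entrez Gene 12508, chromosome 3 from 106758861 to 106790149) encodes a tetraspanin of white blood cells. Vehicle gonads held 83.5, 31.0, 70.7, 73.4 and 72.0 normalized counts. GPI gonads held 47.0, 44.1, 71.0, 20.9 and 19.5. It was the member with the widest overlap: M2 was higher with GPI, M3 was level, and M1, M4 and M5 were lower. The within-mouse log2 ratio ran from -1.78 in M5 to 0.48 in M2, and the fitted log2 fold change was -0.77 (standard error 0.34).

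Fcer1g (Entrez Gene 14127, chromosome 1 from 171229572 to 171234349) encodes the gamma chain through which Fc receptors and related receptors signal. With vehicle it had 83.5, 72.7, 32.5, 51.3 and 38.3 normalized counts. With GPI it had 31.3, 32.1, 27.5, 12.6 and 21.7. The groups touched, since M3 with vehicle stood just above M2 with GPI, and M3 changed least (log2 ratio -0.23). The fitted log2 fold change was -1.12 (standard error 0.30).

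Of 22 genes for ITAM adaptors and for Fc and related receptors, 10 were tested, 4 were called lower and 0 higher, with a median log2 fold change of -0.85. Tyrobp, the DAP12 adaptor that works beside the gamma chain, had 109, 79.9, 120.1, 112 and 116 normalized counts with vehicle. Its GPI values were 72.8, 44.9, 63.5, 10.5 and 27.1. The groups did not overlap, M4 was again lowest with GPI, and the log2 fold change was -1.43 (standard error 0.33, edgeR adjusted p = 0.00642, lower in 5 of 5 mice). The C-type lectin receptor gene Clec5a fell by 2.45 (edgeR adjusted p = 0.00629, lower in 5 of 5 mice), and its value was -1.86 without M3. Sirpa, which provided 54.9% of the summed vehicle level of the list, and Cd300a had log2 fold changes of -0.14 and -0.27 and were not called. The mast cell receptor chain Fcer1a was at 0 in all 10 libraries.

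Coro1a (Entrez Gene 12721, chromosome 7 from 126699774 to 126704816) encodes coronin-1A, an actin-binding protein of white blood cells. With vehicle it had 33.4, 20.3, 23.6, 14.1 and 21.4 normalized counts. With GPI it had 3.4, 6.4, 5.7, 0 and 5.4. The groups did not overlap, and M4 was lowest with both treatments. The fitted log2 fold change was -2.47 (standard error 0.58), resting on 8 counts or fewer in each GPI library.

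Lcp1 (Entrez Gene 18826, chromosome 14 from 75131123 to 75230842) encodes L-plastin, which bundles actin filaments. Normalized counts with vehicle were 385, 513, 315, 413 and 399. Those with GPI were 67.2, 75.4, 60.6, 25.1 and 44.5. It was the steadiest member within the vehicle group, at 405 ± 70.9 (SD, n = 5), and its groups lay far apart. The fitted log2 fold change was -2.92 (standard error 0.20), and the within-mouse log2 ratio ran from -3.93 in M4 to -2.34 in M3.

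Laptm5 (Entrez Gene 16792, chromosome 4 from 130913334 to 130936148) encodes a lysosomal membrane protein that lowers antigen receptor levels in lymphocytes. With vehicle it had 37.9, 57.2, 24.7, 51.3 and 32.9 normalized counts. With GPI it had 19.0, 26.5, 8.5, 10.5 and 17.4. Each mouse was lower with GPI, although M2 with GPI stood above M3 with vehicle. The fitted log2 fold change was -1.34 (standard error 0.34).

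**Figure D2:**
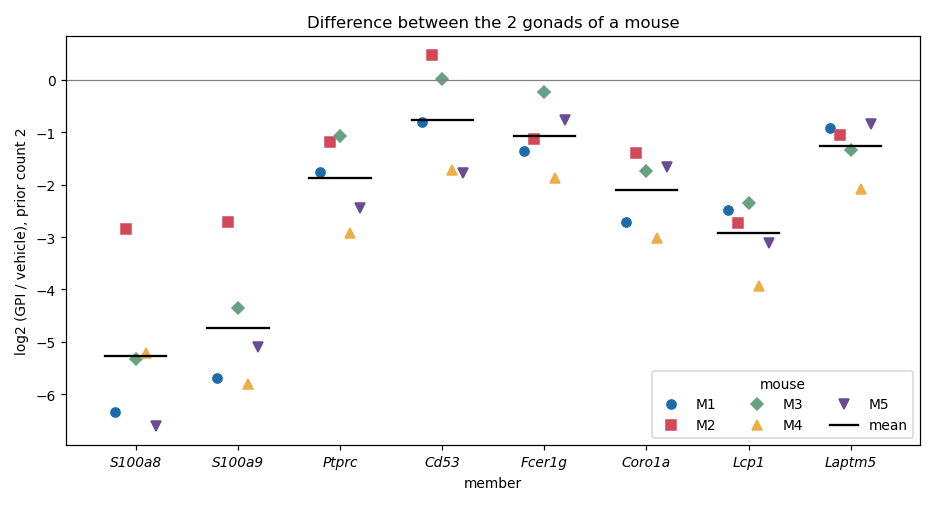
Log2 ratio of GPI to vehicle within each mouse (y axis, prior count 2) for each member (x axis), with a bar for the mean of 5 mice. S100a8 and S100a9 lie between -6.61 and -2.72, and Cd53 reaches 0.48.

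The size of the difference varied among the members. In M1, M3, M4 and M5 both S100 genes had a lower log2 ratio than any of the 6 others. In M2 the S100a9 ratio of -2.72 and the Lcp1 ratio of -2.73 were nearly equal. Set against Ptprc in the same library, S100a9 had 0.74 to 2.95 counts for each Ptprc count with vehicle and 0 to 0.94 with GPI. Lcp1 had 1.70 to 4.39 with vehicle and 0.91 to 1.49 with GPI, with no overlap. Within mice the ratio to Ptprc was higher with GPI in 5 of 5 for Cd53 (medians 0.39 with vehicle and 0.87 with GPI) and Fcer1g (0.34 and 0.53) and in 4 of 5 for Laptm5 (0.18 and 0.42), although ranges over all mice overlapped. Coro1a went the other way, its ratio to Ptprc being lower with GPI in 4 mice and higher in 1 (medians 0.16 and 0.09).

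With the treatments centred, pairs among the 6 other members had a median Pearson r of 0.59 over 10 libraries (15 pairs, from -0.27 to 0.80). Pairs of an S100 gene with 1 of the 6 had a median of 0.30 (12 pairs, from 0.13 to 0.77). All pairs share the same libraries and are given as a description. The genes most like the 6 other members were Pde3a (r = 0.990), Nid2 (0.974), Rictor (0.973), Pde2a (0.972) and Nrp2 (0.971), of which Nid2 encodes a basement membrane protein and Nrp2 a semaphorin and VEGF co-receptor. All 5 were called lower, with log2 fold changes from -1.80 for Pde2a to -0.29 for Rictor, and Rictor was not called without M4 (-0.21) or M5 (-0.27). They were chosen for following the members over both treatments, so nothing is read from these calls. With treatments centred the first 5 were Tbrg3 (0.947), Pde3a (0.928), the endothelial gene Pecam1 (0.922), Igf2os (0.918) and Cnnm4 (0.907), of which Tbrg3 (-0.09) and Cnnm4 (-0.17) were not called.

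Levels were compared between genes per kilobase of the longest annotated transcript. With vehicle S100a9 stood highest at 637 ± 423 normalized counts per kilobase (SD, n = 5), followed by S100a8 at 474 ± 258. Lcp1 (105 ± 18.5) and Fcer1g (81.5 ± 32.1) came next, then Cd53 (38.0 ± 11.6), Ptprc (29.8 ± 8.82), Laptm5 (15.7 ± 5.12) and Coro1a (12.9 ± 4.02). Ranges of neighbours in this order overlapped except between S100a8 and Lcp1. With GPI the order was Fcer1g (36.7 ± 11.9), S100a9 (31.3 ± 36.6), Cd53 (23.3 ± 12.2), S100a8 (15.7 ± 26.8), Lcp1 (14.2 ± 5.20), Ptprc (8.31 ± 3.39), Laptm5 (6.30 ± 2.76) and Coro1a (2.39 ± 1.49). Every pair of neighbours then overlapped in range, although Fcer1g, at 18.4 or more, lay above every GPI library of Ptprc, Laptm5 and Coro1a. Compared within libraries, Lcp1 lay above Ptprc and Laptm5 above Coro1a in 5 of 5 with GPI. Fcer1g lay above Cd53 in 5 of 5 with vehicle. The other overlapping neighbours kept their order in 1 to 4 of 5 libraries.

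**Figure D3:**
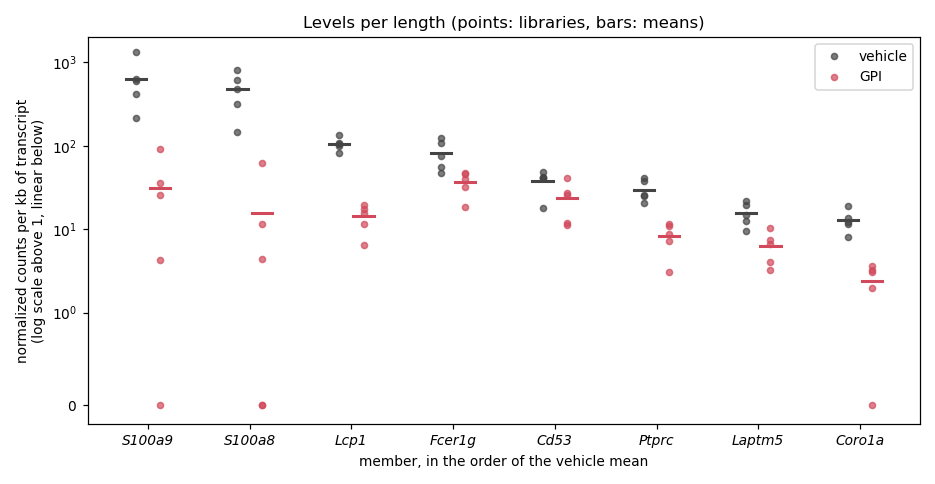
Normalized counts per kilobase (y axis, logarithmic above 1) of each member (x axis) in 5 vehicle and 5 GPI libraries, with bars for means. The vehicle S100a8 and S100a9 libraries lie at 145 or more, above every library of the other members, and 0 was reached with GPI by S100a8, S100a9 and Coro1a.

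Leukocyte genes outside the members were tested next. Of 42 genes for leukocyte signalling, adhesion and the cytoskeleton, 34 were tested, 21 were called lower and 1 higher, with a median log2 fold change of -1.62. Of the 14 with at least 10 counts in every library, 7 were called lower, with no share over all genes beside them. The genes with the most counts were Ucp2, Lsp1, Itga4 and Pik3cg. Lsp1, which binds actin in leukocytes, fell (log2 fold change -0.83, edgeR adjusted p = 0.000205, lower in 5 of 5 mice), as did Pik3cg, the catalytic subunit of PI3K gamma (-2.51, edgeR adjusted p = 1.06e-05, lower in 5 of 5 mice). The mitochondrial carrier gene Ucp2 was not called (-0.26), although it was without M5 (-0.38). Itga4, an integrin subunit that is not limited to blood cells, rose by 0.87 (edgeR adjusted p = 2.97e-05, higher in 5 of 5 mice). Ucp2 alone held 26.3% of the summed vehicle level, and the GPI sum was 75.4% of the vehicle sum.

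**Figure D4:**
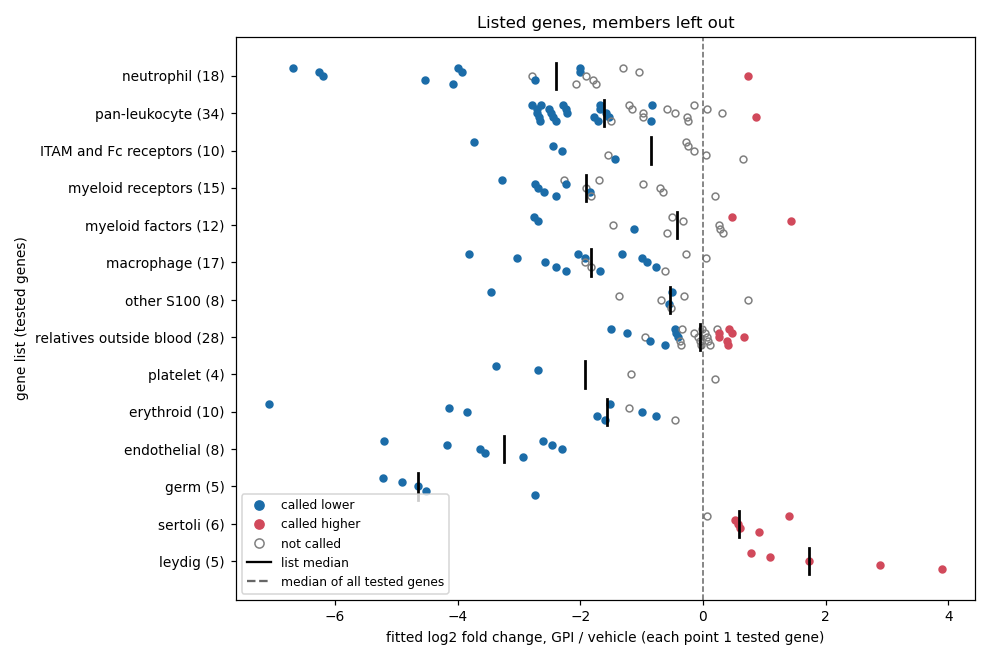
Fitted log2 fold change (x axis) of each tested gene of 14 gene lists (y axis), coloured by whether it was called lower, higher or not at all, with black bars for list medians and a dashed line for the median of all tested genes. Endothelial genes have a median of -3.25 and relatives outside blood one of -0.04.

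Transcription factors of myeloid and other blood cells were divided: of 15 listed, 12 were tested, 3 were called lower (Runx1, Lmo2 and Ikzf1, the last 2 named after their values were seen) and 2 higher (Maf and Cebpa), with a median of -0.42. Runx1, needed for blood stem cells to form, had a log2 fold change of -1.12 (edgeR adjusted p = 0.000188, lower in 5 of 5 mice). Maf, most abundant in this list with 48.4% of its vehicle sum, rose by 0.47 (edgeR adjusted p = 0.00244, higher in 5 of 5 mice), and Cebpa by 1.43 (edgeR adjusted p = 0.0032, higher in 5 of 5 mice). Klf4 (0.32) was not called, but was without M2 (0.49). Spi1, which encodes PU.1, had 4.0 to 11.1 normalized counts with vehicle and 1.1 to 3.4 with GPI, too few to be tested.

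Of 16 receptors for myeloid growth factors and chemoattractants, 15 were tested, 7 were called lower and 0 higher, with a median of -1.91. The number called lower was 4 without M5, 10 with DESeq2 and 2 of 4 tested with at least 10 counts in every library, and 1 was called higher without M2. Cxcr4, with 47.8% of the vehicle sum, had 899, 988, 1065, 1229 and 1132 normalized counts with vehicle and 178, 205, 184, 117 and 147 with GPI. No library overlapped, and its log2 fold change was -2.68 (standard error 0.15, edgeR adjusted p = 4.48e-08). Which cells of the gonad held Cxcr4 RNA was not tested. Csf1r, the macrophage growth factor receptor, fell by 2.23 (edgeR adjusted p = 5.06e-06, lower in 5 of 5 mice). C3ar1 (-0.65) and Csf2ra (0.19) were not called, though C3ar1 was without M1 (-0.86) or M2 (-0.88) and Csf2ra was without M2 (0.37).

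Of 20 listed growth factors and chemoattractants for these cells, 8 were tested, 0 were called lower by edgeR and 1 higher, with a median of -0.51, and 3 had an unadjusted p under 0.05. Cxcl12, the ligand of CXCR4, rose by 0.78 (standard error 0.08, edgeR adjusted p = 7.14e-06, higher in 5 of 5 mice) and held 89.5% of the vehicle sum. Csf1 (-0.22), Cxcl10 (-0.48) and Cx3cl1 (0.23) were not called, and Cxcl10 was at 0.05 without M4. Csf2 was at 0 in all libraries.

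Of 7 genes for proteins reported to bind S100A8 or S100A9, 6 were tested, with a median of -0.67, and Tlr4 and the sialic acid lectin gene Cd33, named after its values were seen, were called lower. Tlr4, the endotoxin receptor, fell by 2.37 (edgeR adjusted p = 2.83e-06, lower in 5 of 5 mice). Its co-receptor gene Ly96 (0.22) and Cd36 (-0.11) were not called, but Ly96 was without M2 (0.45). Bsg, 77.5% of the vehicle sum, had a log2 fold change of -0.46 (edgeR adjusted p = 0.0548) that was called without M1 (-0.71). In M1 the GPI library had 3293 normalized counts of Bsg, and in the other 4 from 1090.2 to 1280.

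The other tested S100 genes had smaller fold changes than the pair, S100a16 the largest of them. Of 15 listed, 8 were tested, 3 were called lower and 0 higher, with a median of -0.53, and 12 of the 15 lie on chromosome 3 with the pair. S100a11, with 94.1% of the summed vehicle level, fell by 0.51 (edgeR adjusted p = 0.000144, lower in 5 of 5 mice), and S100a10 likewise (-0.55, edgeR adjusted p = 0.00289, lower in 5 of 5 mice). S100a16 had 148, 135, 155, 195 and 188 normalized counts with vehicle and 6.7, 27.3, 10.4, 13.6 and 17.4 with GPI. No library overlapped, and its log2 fold change was -3.46 (standard error 0.28, edgeR adjusted p = 1.16e-06, lower in 5 of 5 mice). Unlike the pair, S100a16 was not low in M4 or high in M5 beyond the other vehicle libraries. S100a6 (-0.31), S100b (-0.52), S100a1 (0.74), S100a13 (-1.37) and S100g (-0.68) were not called, and S100g ranged from -1.31 without M5 to -0.07 without M3. Within 250 kb on either side of the pair lay 16 other entries, of which 9 were tested and S100a16 alone was called.

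Relatives of the other members that are not limited to leukocytes were divided. Of 28 tested, 7 were called lower, 7 higher and 14 not at all, with a median of -0.04. Pls3, the plastin relative of Lcp1 with more counts, had a log2 fold change of -0.45 (edgeR adjusted p = 0.00672, lower in 5 of 5 mice). Coro1c, a coronin, fell by 0.62 (edgeR adjusted p = 0.000181, lower in 5 of 5 mice). Laptm4a, Laptm4b, Cd63, Tspan7 and the receptor phosphatase gene Ptprd rose by 0.41, 0.42, 0.40, 0.48 and 0.67, each higher in 5 of 5 mice. The tetraspanin gene Cd9 (-1.49) and the phosphatase gene Ptprm (-0.87), named after their values were seen, fell in 5 of 5 mice, Cd9 by the most of the list. Ptpre, also named afterwards, was called lower (-0.40) but not without M2, M3, M4 or M5 (values from -0.41 to -0.30). Cd81 rose by 0.26 (edgeR adjusted p = 0.0204) and was not called without M1 (0.21), M3 (0.25) or M4 (0.25), and Ptprg was not called (-0.02).

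Markers of other cells moved in the same libraries, and their part in the values above was not tested. Of 18 macrophage markers, 17 were tested, 12 were called lower and 0 higher, with a median of -1.82, and 6 of the 8 with at least 10 counts in every library were called lower. Their summed normalized counts were 2037, 1686, 1731, 1549 and 1738 with vehicle and 1086, 1079, 1156, 835 and 855 with GPI. Mertk, a receptor for dying cells that Sertoli cells also use, was most abundant (26.7% of the vehicle sum) and was not called (0.05). Lyz2 (-1.67), Mpeg1 (to 50.8% of the vehicle mean) and Cd68 (-0.77) fell, each lower in 5 of 5 mice. No macrophage marker was at 0 in all libraries.

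Lymphoid cells left little signal. Of 18 lymphoid markers, 3 were tested, and Lck (-0.99) and Cd247 (-1.40) were not called. The sum was 31 to 75 normalized counts with vehicle and 31 to 76 with GPI, Lck was most abundant, and Cd3e, Cd3g and Nkg7 were at 0 in all libraries. Of 12 mast cell, basophil and eosinophil markers, 3 were tested (Hdc, Siglecf and Epx), with a median of 0.33, and 0 were called by edgeR, with 0 at an unadjusted p under 0.05. Tpsab1 and Mcpt8 were at 0 in all libraries, Hdc was most abundant, and the sum was 57 to 119 with vehicle and 44 to 94 with GPI.

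Some platelet genes and most red cell genes were called lower. Of 8 platelet markers, 4 were tested, with a median of -1.93, and 2 were called lower, the chemokine genes Pf4 (-2.69) and Ppbp (-3.37, from -4.22 without M4 to -2.71 without M2), while Itga2b (0.19) and Gp9 (-1.17) were not called. The platelet sum was 46, 105, 26, 168 and 61 with vehicle and 26, 18, 21, 40 and 33 with GPI, with Pf4 most abundant. Of 10 red cell markers, 8 of 10 tested were called lower, with a median of -1.56. Their sum was 2125, 2802, 5327, 4995 and 4227 with vehicle and 1882, 1017, 959, 1079 and 2521 with GPI, so M1 and M5 kept more red cell RNA with GPI and M1 had the least with vehicle. The embryonic globin gene Hbb-y, most abundant, fell to 52% of its vehicle mean, and the adult globin genes Hbb-bs (-4.14) and Hbb-bt (-3.85) also fell, each lower in 5 of 5 mice. The adult globin genes are close copies, so how reads were divided among them is uncertain. Hba-x (-0.46) was not called, but was without M1 (-0.78).

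Endothelial and germ cell markers fell furthest among the other lists. All 8 endothelial markers were tested and called lower, with a median of -3.25. The sum was 7435, 7763, 7025, 8216 and 7289 with vehicle and 816, 976, 668, 538 and 724 with GPI, Cdh5 being most abundant. Cdh5 (-3.64), Pecam1 (-4.17), Kdr (-2.46) and Flt1 (-5.20) were lower in every mouse. Of 6 germ cell markers, 5 were tested and 5 called lower, with a median of -4.64. Their sum was 957, 2021, 1226, 1686 and 635 with vehicle and 129, 100.0, 26, 35 and 102 with GPI, with Dazl (-4.64) most abundant. Dppa3 (-5.21, and -5.88 without M1), Sall4 (-4.91) and Ddx4 (-2.73, and -3.36 without M5) also fell. M4 had the lowest endothelial sum with GPI, and was lowest or tied for lowest with GPI in 6 of 8 members.

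Sertoli and Leydig cell markers were not lower. Of 6 Sertoli cell markers, 5 were called higher, with a median of 0.59, and their sum was 1804, 2632, 1870, 2292 and 2644 with vehicle and 2484, 3680, 3658, 4271 and 3514 with GPI. Sox9 (0.58) was most abundant, Inhbb (0.60) and Dhh (0.91) also rose, and Dmrt1 (0.52) was not called without M2, M3, M4 or M5 (values from 0.41 to 0.52). Of 6 fetal Leydig cell markers, 5 were tested and called higher, with a median of 1.73. Their sum was 1471, 3032, 4268, 2231 and 5631 with vehicle and 10099, 10529, 16269, 18575 and 13525 with GPI, with Hsd3b1 (1.73) most abundant, followed by Cyp11a1 (2.89), Star (0.78) and Nr5a1 (1.10).

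**Figure D5:**
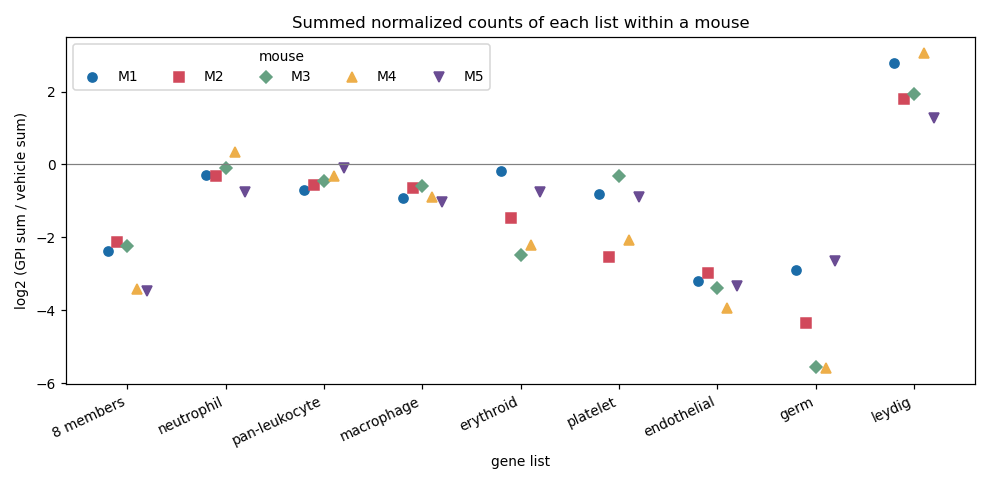
Log2 ratio of the GPI to the vehicle sum of normalized counts within each mouse (y axis) for the 8 members and 8 gene lists (x axis). The member sums are 935 or more with vehicle and 314 or fewer with GPI, while the neutrophil list is lower with GPI in M5 (2053 and 1224) and higher in M4 (1153 and 1468), Mgst1 making up 89.9% of its GPI sum.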

How the data were processed

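RNA of 10 cultured testes from 5 embryos was measured. The authors used STAR 2.5 for mapping to mm10 and featureCounts (Subread 1.5.0-p1), unstranded, for counting, and their deposited raw counts were the unit used here. The 24470 entries carried 24468 distinct Entrez identifiers, and 0 other columns of sample values were present. No member overlapped another entry.

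The members and lists were chosen with earlier results of these data known. edgeR 4.0.16 (R 4.3.3) fitted quasi-likelihood models to 15010 genes that passed filterByExpr with the design (minimum count 10, minimum total 15), with TMM scaling, the mouse as a replicate block and Benjamini-Hochberg adjustment at a false discovery rate of 0.05. The scripts were tested on simulated data. Normalized counts are counts divided by effective library size, times its mean. Within-mouse ratios and correlations used log2 CPM with a prior count of 2. Lengths came from GENCODE M21. Alternatives were DESeq2 1.42.0, limma-voom (limma 3.58.1), no replicate block, other scalings and filters, other prior counts and each mouse left out. A filter by treatment group was added after seeing the data. Python 3.11.15 made summaries and figures.

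The pairing comes from the labels, which give both gonads of an embryo the same number. Deviations from the treatment mean correlated from -0.084 to 0.124 within a mouse and by -0.009 on average between mice. Libraries of the same treatment differed by more than sampling noise (chi-square per degree of freedom 6.42 to 27.8). Libraries without molecular identifiers hold amplified copies, so the floor of 3 counts covers counting error only.

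Genes were named by a rule: the members, the 4 tested genes with the highest vehicle mean in each list, up to 5 listed genes called against the list's main direction, tested S100 genes, the most counted relative of each leukocyte-restricted member, and the 5 genes most like each profile. Not every gene so selected is reported. Others are said to be named after their values were seen. Proteins were not analysed here.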

Additional observations from a re-analysis of the deposited data

Results flagged for a closer look

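Of 52 groups of 5 libraries checked (each member and each list sum with each treatment), 5 held a library far from the other 4, where chance flags about 1 in 20 groups. S100a8 with GPI had 31.3 normalized counts in M2 and at most 5.7 in the others. Cd53 with vehicle had 31.0 in M2, the others having 70.7 or more. The summed list of S100A8 and S100A9 receptors with GPI was 3687 in M1, through Bsg, and 1473 to 1623 in the others. The lymphoid sum with GPI was 76 in M1 and at most 40 in the others. The sum of mast cell, basophil and eosinophil markers with vehicle was 119 in M5 and at most 69 in the others.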

How the results depend on the processing

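The number of genes called (3288) ran from 2819 to 3472 over the alternative tests, scalings and filters, from 2350 to 3159 with each mouse left out, and was 3219 without the replicate block. Genes called lower (1827) ran from 1314 to 1746 with a mouse left out. Leukocyte genes called lower (21) ran from 17 to 21 without a mouse and were 7 of 14 tested when at least 10 counts in every library were required, a filter that removes genes near 0 with GPI. Neutrophil genes called lower (10 of 18) were 9 without any 1 mouse, 2 of 3 under that filter and 5 of 6 with the filter by treatment group, added after seeing the data; both filters left fewer genes to test. Relatives and other S100 genes called lower (10) ran from 8 to 11 without a mouse. Without the replicate block, 11 neutrophil and 21 leukocyte genes were called lower. Members called lower were 7 of 8 under other tests and scalings, 5 without M4, 6 without M1, 8 without M2 and 3 of the 4 that passed the strictest filter. Of 124 alternative member values, 120 moved by less than 1 SD between mice and 0 changed direction. The log2 fold change of S100a8 was -6.59 with DESeq2 and -6.76 without M2. At the smallest prior count the mean within-mouse log2 ratio of S100a8 was -7.12 and the mean within-mouse log2 ratio of Coro1a -3.14. Of 1329 alternative values of 106 other named genes, 1286 kept direction and side of the threshold, 19 lost and 13 gained a call, and 11 changed direction, none of them of a called gene. With a mouse left out the ranges were -0.99 to 0.05 (Cxcl10, above 0 without M4), -0.25 to 0.00 (Cd36, 0.00 without M1 or M2), -0.05 to 0.05 (Ptprg, 0.00 without M1, 0.05 without M4), -0.00 to 0.13 (Mertk, lowest without M4), -0.09 to 0.77 (Siglecf, lowest without M1), -0.20 to 0.65 (Epx, lowest without M1) and -0.32 to 0.84 (Itga2b, lowest without M1; -0.05 with limma-voom and -0.08 without the replicate block); the cause was not tested. Higher calls were 44.4% of calls with TMM, 45.8% with DESeq2 size factors and 37.5% with total counts alone. Differences between GPI values that rest on under 10 counts in a library were not tested.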
